A study of Homo sapiens with 12 samples.

Results

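The 9 genes described here are NFE2L2, which encodes the transcription factor NRF2, 6 antioxidant genes that NRF2 is known to control (HMOX1, NQO1, GCLC, GCLM, TXNRD1 and SRXN1), and the heavy and light chains of ferritin (FTH1 and FTL). They were chosen by symbol, and all 9 are listed in both deposited tables, among 23284 symbols in the first and 12421 in the second. The values are mRNA levels in polysomes of HEK293, a cell line derived from human embryonic kidney, collected by sucrose gradient after cycloheximide had stopped translating ribosomes on their mRNAs. The 12 libraries form 6 groups of 2. The first experiment has cells transfected for 24 h with 5 ug of a plasmid for STING, an adaptor of cytosolic DNA sensing, and cells transfected with vector. The second, here called the knockout experiment, has PERK knockout cells with STING, PERK knockout cells with vector, wild-type cells with STING and wild-type cells with vector, all by the same dose and time. PERK is a kinase of the endoplasmic reticulum that slows translation during stress. The labels do not say how the knockout was made, whether it is 1 clone, or whether libraries came from separate cultures, and the spread that p-values measure here may therefore be technical.

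NRF2 is made continuously, held by the adaptor KEAP1 and degraded. Oxidants and electrophiles modify KEAP1, and NRF2 that escapes degradation pairs with small MAF proteins and binds antioxidant response elements beside genes for glutathione synthesis, thioredoxin recycling and haem breakdown. PERK is known to phosphorylate NRF2 as well as the translation factor eIF2alpha. Ferritin stores iron in a shell of heavy and light chains. Its mRNAs carry an iron-responsive element near the 5′ end, where iron regulatory proteins block translation when iron is scarce, so a level in polysomes is a natural readout for these mRNAs.

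Matching letters were looked for in RefSeq promoter windows of build GRCh38.p14, each running from 250 bases before to 50 bases after a gene's start, because these are the elements through which the pathway is known to act. The table held windows for 7 of the 9 genes, without HMOX1 and FTH1. The antioxidant response element was searched as TGACNNNGC on both strands, which occurs in 13.3% of all 35116 windows. It was found in GCLM and in both windows of TXNRD1, and in none of the windows of NFE2L2, NQO1, GCLC, SRXN1 and FTL. The loop letters of the iron-responsive element were searched as CAGTGN on the sense strand of the transcribed 50 bases, which 6.36% of windows hold, and were found in FTL. A match describes letters and shows no binding, and letters outside these windows were not searched. The matches are printed 5′ to 3′ with the matched letters in capitals, each in a stretch of 30 bases.
GCLM, chr1:93909445-93909474, + strand: ctggaagacaaTGACTAAGCagaaatcgta
TXNRD1, chr12:104215670-104215699, + strand: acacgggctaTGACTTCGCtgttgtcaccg
TXNRD1, chr12:104215761-104215790, - strand: cctgtgggaacTGACGGAGCcgaaggacgc
TXNRD1, chr12:104286920-104286949, - strand: cagagtcagaaTGACAAAGCagaaatccac
FTL, chr19:48965329-48965358, + strand: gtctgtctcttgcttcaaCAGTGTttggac

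Both tables were read as FPKM, fragment numbers corrected for transcript length and for how many fragments were mapped. The first was deposited under that unit's name. The second was not, and its lowest value is 1 in every library, so a gene listed at 1 may lie anywhere at or under that floor. Levels cannot be compared across the 2 tables. Both lack counts, so depth is unknown. Between replicates, Pearson r of log2 values across genes was 0.972 to 0.973 in the first experiment and 0.977 to 0.991 in the knockout experiment. TMEM173, the older symbol of STING, averaged 67205 ± 2896 FPKM with STING and 14.4 ± 0.836 with vector in the first experiment (SD, n = 2 each). It averaged 8925 ± 2244 with STING and 33.6 ± 14.4 with vector in PERK knockout cells, and 41236 ± 815 with STING and 29.9 ± 9.55 with vector in wild-type cells, so the plasmid's level differed between genotypes. In any difference of the STING response between genotypes, genotype and STING level therefore cannot be told apart. EIF2AK3, the gene of PERK, stood at the floor in 7 of the 8 libraries of the knockout experiment, wild-type ones included, and so cannot check the knockout label. Of 8 HEK293 markers, 7 were above 0 in the first experiment, where NEFM was at 0. The markers summed to 154 and 153 FPKM with STING and to 120 and 109 with vector. Most of this was VIM, at 75.0 and 75.1 with STING and 47.5 and 44.9 with vector, and KRT18, at 65.7 and 65.8, and 63.7 and 54.8. In that table the blood markers PTPRC, CD3E, LAPTM5 and HBB and the fibroblast markers DCN, LUM, COL1A2 and THY1 were at 0 in all 4 libraries.

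Of the 9 genes, the ferritin chains were the ones whose polysome level passed the test: with STING in the first experiment, FTH1 and FTL each fell to 0.658 times the vector level. They were 2 of the 8 members tested there, where 11.8% of all genes passed, and of genes averaging at least 100 FPKM, as ferritin does, 37.4% passed as lower. Both calls were lost without either STING library, under quantile normalization, and without limma's intensity trend and robust estimation. HMOX1, which degrades haem, was 1.80-fold lower with STING there and 1.60-fold lower in wild-type cells, without passing the test in either. In the knockout experiment no member passed in any comparison, where at most 0.049% of all genes did. Within that experiment the 4 PERK knockout libraries held more HMOX1 and less NFE2L2 than the 4 wild-type libraries, with no overlap, as a description, where 5.79% of all genes were higher and 5.61% lower in this way. Total RNA was not analysed here, so the amount of an mRNA and its loading with ribosomes cannot be told apart, and in such bulk samples neither can fewer cells and less RNA per cell.

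**Figure D1:**
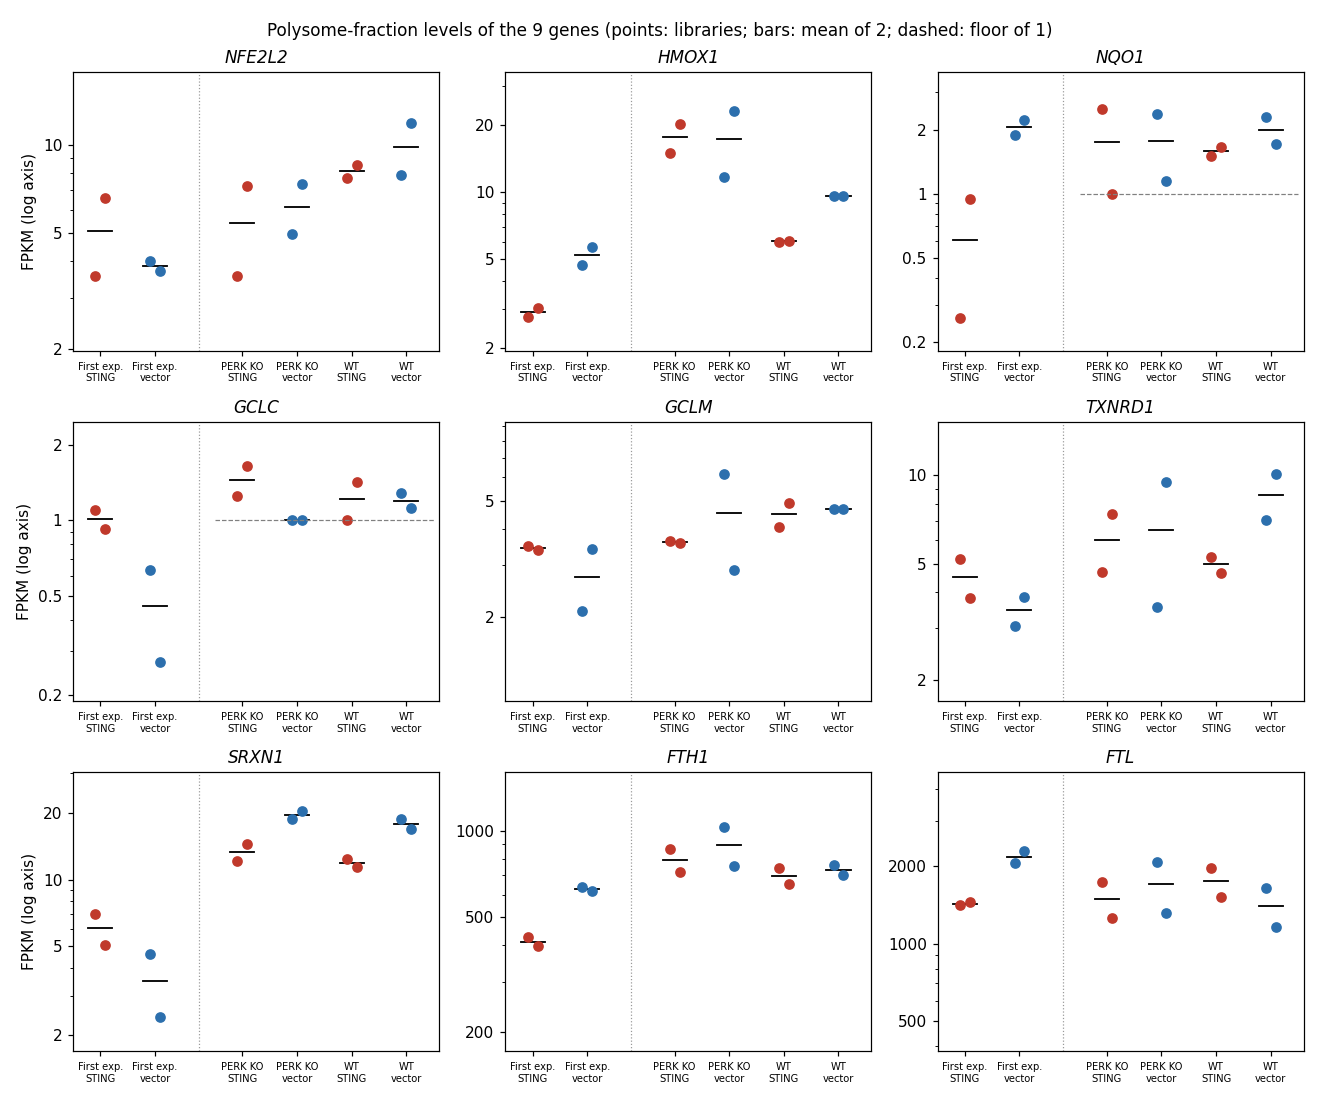
FPKM of each gene in each library (points, log axis) by group, with the mean of 2 libraries as a bar, STING in red and vector in blue; the dotted line separates the tables and the dashed line marks the floor of 1 where a library stands on it. FTH1 and FTL are lower in both STING libraries than in both vector libraries of the first experiment, and HMOX1 is higher in all 4 PERK knockout libraries than in all 4 wild-type libraries.

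NFE2L2, the mRNA of NRF2 itself, had 3.56 and 6.58 FPKM with STING and 3.99 and 3.69 with vector in the first experiment, so that the vector libraries lay inside the range of the STING libraries. In the knockout experiment it had 3.56 and 7.23 FPKM in PERK knockout cells with STING, 4.95 and 7.34 in PERK knockout cells with vector, 7.72 and 8.50 in wild-type cells with STING, and 7.86 and 11.8 in wild-type cells with vector. STING and vector libraries overlapped within each genotype. The log2 change with STING was 0.28 in the first experiment, -0.20 in PERK knockout cells and -0.23 in wild-type cells, with SE of 0.29, 0.34 and 0.34. limma adjusted p was 0.580, 0.935 and 0.752 in the same order. With vector alone, PERK knockout cells averaged 6.14 ± 1.69 FPKM and wild-type cells 9.84 ± 2.81 (SD, n = 2 each), a log2 difference of -0.60 (SE 0.34, limma adjusted p = 0.515).

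HMOX1 had 2.77 and 3.03 FPKM with STING and 4.75 and 5.69 with vector in the first experiment. PERK knockout cells had 15.1 and 20.2 with STING and 11.7 and 23.2 with vector. In wild-type cells it had 6.00 and 6.07 with STING and 9.66 and 9.65 with vector. Thus both STING libraries lay below both vector libraries in the first experiment and in wild-type cells. This was common, with 32.8% of all genes lower without overlap in the former and 52.3% in the latter. In PERK knockout cells, where 21.9% of all genes were lower without overlap, HMOX1 in the STING libraries lay between its vector values. The log2 change was -0.67 in the first experiment (SE 0.23, unadjusted p = 0.0203, limma adjusted p = 0.104), 0.08 in PERK knockout cells (SE 0.31, limma adjusted p = 0.990) and -0.60 in wild-type cells (SE 0.31, limma adjusted p = 0.416). In wild-type cells the median of all genes was itself -0.27, and relative to it the HMOX1 change was -0.33. The response in PERK knockout cells minus that in wild-type cells was 0.68 (SE 0.45, 95% interval -0.36 to 1.71, limma adjusted p = 0.966), so a difference of the responses was not shown.

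With vector alone, HMOX1 averaged 17.4 ± 8.12 FPKM in PERK knockout cells and 9.66 ± 0.00499 in wild-type cells (SD, n = 2 each). The log2 difference of 0.72 (SE 0.31, unadjusted p = 0.0537, limma adjusted p = 0.410) was larger than that of 97.4% of genes tested. It was 1.18 without PERK knockout vector library 1 and 0.25 without PERK knockout vector library 2. Over both plasmids, HMOX1 ran from 11.7 to 23.2 FPKM, median 17.6, in the 4 PERK knockout libraries and from 6.00 to 9.66, median 7.86, in the 4 wild-type libraries. NFE2L2 ran from 3.56 to 7.34, median 6.09, in PERK knockout cells and from 7.72 to 11.8, median 8.18, in wild-type cells. The ranges of these genes did not overlap between genotypes, and those of the other 7 did. Among all 12254 genes tested, 5.79% were higher in all 4 PERK knockout libraries than in all 4 wild-type libraries, and 5.61% were lower. This grouping was chosen after the values were seen and has no test. HEK293 markers summed to 286 and 432 FPKM in PERK knockout cells with STING and 242 and 332 with vector. The sums were 158 and 166 in wild-type cells with STING and 156 and 221 with vector. VIM and KRT18 made up most of these sums, averaging 169.6 and 59.15 FPKM over the knockout experiment. PAX2 and LHX1 averaged 1.059 and 1.025 there, near the floor. The part of the markers in the genotype difference was not tested.

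Within a library, the HMOX1 value was 4.23 and 2.80 times that of NFE2L2 in PERK knockout cells with STING and 2.36 and 3.16 times in PERK knockout cells with vector. The ratio was 0.777 and 0.715 in wild-type cells with STING and 1.23 and 0.816 in wild-type cells with vector. All 4 PERK knockout libraries exceeded the wild-type libraries in this ratio. That follows from the ranges of HMOX1 and NFE2L2 given above, which did not overlap between genotypes, and is no separate result. In the first experiment the ratio was 0.777 and 0.460 with STING against 1.19 and 1.54 with vector.

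NQO1, a quinone reductase, was near the lower limit of these tables. It had 0.259 and 0.947 FPKM with STING and 1.89 and 2.21 with vector in the first experiment. Its group means there were the lowest of the set beside those of GCLC. Its log2(FPKM + 1) change of -0.96 (SE 0.31, unadjusted p = 0.0145) had a limma adjusted p of 0.0850 and so stayed above the threshold. In the knockout experiment it had 2.49 and 1 FPKM in PERK knockout cells with STING, 2.38 and 1.15 with vector, 1.51 and 1.66 in wild-type cells with STING, and 2.29 and 1.70 with vector. Each PERK knockout group spanned a wide range, with 1 STING library at the floor. The log2 change with STING was -0.03 in PERK knockout cells and -0.21 in wild-type cells.

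GCLC and GCLM are the catalytic and modifier subunits of glutamate-cysteine ligase, the first enzyme of glutathione synthesis. GCLC had 1.10 and 0.924 FPKM with STING and 0.634 and 0.271 with vector in the first experiment; its mean was under 1, so it was not tested there. Without that filter its log2 change was 0.48 (SE 0.24, limma adjusted p = 0.361). PERK knockout cells had 1.25 and 1.64 FPKM with STING and stood at the floor in both vector libraries, while wild-type cells had 1 and 1.42 with STING and 1.28 and 1.11 with vector. The log2 change was 0.28 in PERK knockout cells (SE 0.13, limma adjusted p = 0.669), a value that the floor understates, and 0.00 in wild-type cells. GCLM had 3.50 and 3.38 FPKM with STING and 2.09 and 3.41 with vector in the first experiment. It had 3.64 and 3.57 with STING and 6.18 and 2.89 with vector in PERK knockout cells, and 4.06 and 4.92 with STING and 4.67 and 4.66 with vector in wild-type cells. Groups with and without STING overlapped in all 3 settings, and the log2 changes were 0.27 in the first experiment, -0.20 in PERK knockout cells and -0.05 in wild-type cells.

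TXNRD1 and SRXN1 serve the thioredoxin branch: thioredoxin reductase recycles oxidised thioredoxin, and sulfiredoxin restores over-oxidised peroxiredoxins. TXNRD1, the gene with 3 matches printed above, had 5.19 and 3.82 FPKM with STING and 3.07 and 3.86 with vector in the first experiment. PERK knockout cells had 4.67 and 7.36 with STING and 3.56 and 9.50 with vector, and wild-type cells had 5.28 and 4.65 with STING and 7.02 and 10.1 with vector. The groups did not overlap in wild-type cells, where 52.3% of all genes were lower in this way. The log2 change of TXNRD1 there was -0.67 (SE 0.41, limma adjusted p = 0.448). The values were 0.30 in the first experiment and -0.01 in PERK knockout cells, where the vector libraries were far apart.

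SRXN1 had 7.00 and 5.06 FPKM with STING and 4.60 and 2.40 with vector in the first experiment, so both STING libraries were the higher. PERK knockout cells had 12.2 and 14.4 with STING and 18.8 and 20.3 with vector. In wild-type cells it had 12.3 and 11.3 with STING and 18.8 and 16.8 with vector, so in the knockout experiment the STING libraries were the lower in both genotypes. Of all genes, 24.2% were higher in this way in the first experiment, and 21.9% in PERK knockout cells and 52.3% in wild-type cells were lower. The log2 changes of SRXN1 were 0.67 in the first experiment (SE 0.30, limma adjusted p = 0.194), -0.53 in PERK knockout cells (SE 0.19, unadjusted p = 0.0272, limma adjusted p = 0.598) and -0.55 in wild-type cells (SE 0.19, unadjusted p = 0.0224, limma adjusted p = 0.384). Relative to the median of all genes, the change was -0.42 in PERK knockout cells and -0.28 in wild-type cells, and under median-of-ratios scaling it was -0.35 and -0.19. The responses of the genotypes differed by 0.02 (SE 0.27, 95% interval -0.61 to 0.66, limma adjusted p = 0.988). With vector, PERK knockout cells averaged 19.5 ± 1.05 FPKM and wild-type cells 17.8 ± 1.42 (SD, n = 2 each), and their libraries overlapped.

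The ferritin mRNAs stood far above the other members in FPKM. FTH1 had 426.5 and 398 FPKM with STING and 635 and 619 with vector in the first experiment. Its mean of 412 ± 20.2 with STING against 627 ± 11.7 with vector (SD, n = 2 each) gave a log2 change of -0.60 (SE 0.0996, limma adjusted p = 0.00905). FTL, whose iron-responsive loop letters are printed above, had 1409 and 1451 FPKM with STING and 2058 and 2285 with vector. Its mean of 1430 ± 29.8 with STING against 2172 ± 160 with vector (SD, n = 2 each) gave -0.60 (SE 0.101, limma adjusted p = 0.00951). Both chains were lower in both STING libraries, and the light-to-heavy ratio was 3.30 and 3.65 with STING against 3.24 and 3.69 with vector, a difference with an exact two-sided permutation p of 1.

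The ferritin fall was shared with many abundant mRNAs. Of 1025 genes that averaged at least 100 FPKM, 37.4% were lower at adjusted p under 0.05 and 4.59% higher, and their median log2 change was -0.35; this set was chosen after the values were seen. Both calls were lost under quantile normalization, at log2 changes of -0.17 for FTH1 (limma adjusted p = 0.296) and -0.26 for FTL (limma adjusted p = 0.204). They were also lost without STING library 1 (limma adjusted p = 0.166 and 0.204) and without STING library 2 (0.173 and 0.176), at log2 changes of -0.65 and -0.58, and of -0.55 and -0.62, for FTH1 and FTL, and without the intensity trend and robust estimation (0.119 and 0.123). Reads of these genes can match processed copies, so the values carry that uncertainty; the copies FTH1P3 and FTHL17 were at 0 in all 4 libraries, and FTLP10 was at 0.243 FPKM in vector library 2 and at 0 in the others.

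In the knockout experiment FTH1 had 864 and 717 FPKM in PERK knockout cells with STING, 1031 and 753 with vector, 742 and 655 in wild-type cells with STING, and 761 and 704 with vector. FTL had 1741 and 1252 in PERK knockout cells with STING, 2079 and 1319 with vector, 1973 and 1513 in wild-type cells with STING, and 1639 and 1159 with vector. STING and vector libraries overlapped in both genotypes. Between libraries of the same number, FTH1 was lower with STING in all 4 pairs, and FTL was lower with STING in both PERK knockout pairs and higher in both wild-type pairs. The shares of all genes with these patterns were not counted. With the replicate block, limma adjusted p for FTL was 0.561 in PERK knockout cells, 0.163 in wild-type cells and 0.628 for the difference of their responses. With STING the log2 change of FTH1 was -0.16 in PERK knockout cells and -0.07 in wild-type cells, with limma adjusted p of 0.896 and 0.912. The medians of all genes were -0.11 in PERK knockout cells and -0.27 in wild-type cells. Relative to them the FTH1 change was -0.06 and 0.20, and under median-of-ratios scaling it was 0.025 and 0.32. The log2 change of FTL was -0.17 in PERK knockout cells and 0.33 in wild-type cells, with limma adjusted p of 0.940 and 0.585. The wild-type value of FTL was above that of 98.2% of genes tested, in a comparison whose median was -0.27. It was 0.14 without STING library 1, 0.52 without STING library 2, 0.58 without vector library 1 and 0.076 without vector library 2, and 0.72 under median-of-ratios scaling and 0.53 under quantile normalization.

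The light-to-heavy ratio in wild-type cells was 2.66 and 2.31 with STING and 2.15 and 1.65 with vector, which do not overlap. The mean ratios of 2.49 ± 0.245 and 1.90 ± 0.359 (SD, n = 2 each) had an exact two-sided permutation p of 0.333, the smallest that 2 libraries against 2 can give. In PERK knockout cells the ratio was 2.02 and 1.75 with STING and 2.02 and 1.75 with vector, with an exact permutation p of 0.667. A ratio within a library does not move with its scaling.

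**Figure D2:**
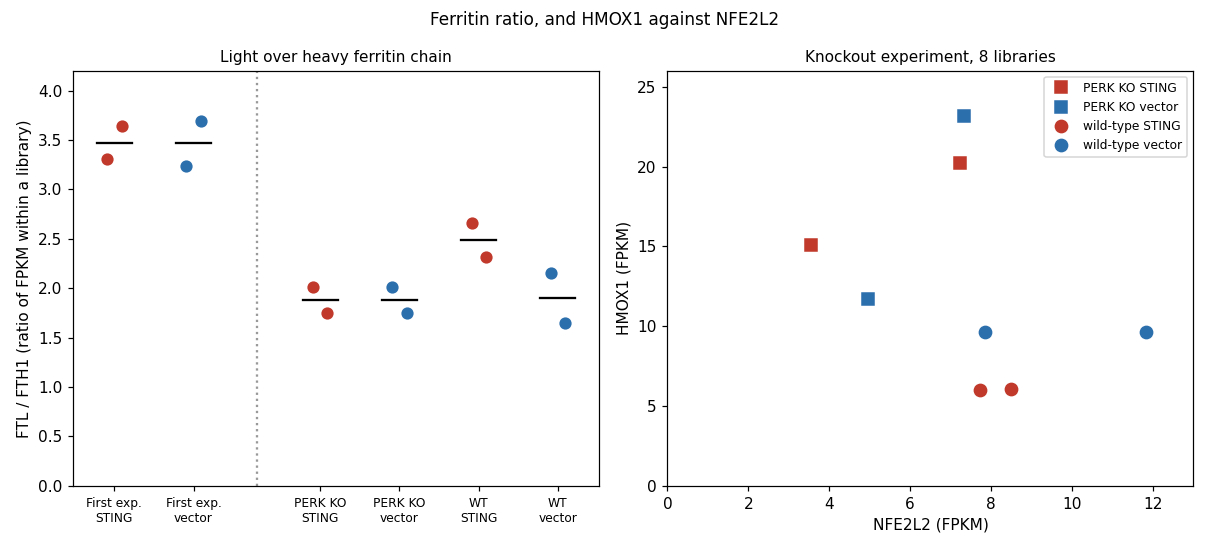
Left, FTL over FTH1 in FPKM within each library (points) with group means (bars), STING in red and vector in blue, on an axis from 0. Right, HMOX1 against NFE2L2 in FPKM in the 8 libraries of the knockout experiment, squares for PERK knockout and circles for wild type. The ratio is near 1.88 in both PERK knockout groups, and the 4 squares lie above the 4 circles.

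Ordered by mean level within the knockout experiment, HMOX1 was lowest in wild-type cells with STING, then wild-type cells with vector, then PERK knockout cells with vector and with STING, and the last pair overlapped. NFE2L2 was lowest in PERK knockout cells with STING, which overlapped PERK knockout cells with vector, and then came wild-type cells with STING and with vector, which overlapped each other. SRXN1 was ordered by plasmid, with both STING groups below both vector groups and overlap within each pair. GCLC was lowest in PERK knockout cells with vector, separate from the wild-type cells with vector above it. GCLM was lowest in PERK knockout cells with STING, separate from the wild-type cells with STING above it, and the remaining neighbours of both genes overlapped. For NQO1, TXNRD1, FTH1 and FTL every neighbouring pair overlapped.

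Across the members, 8 were tested in the first experiment, and 0 were higher and 2 lower at adjusted p under 0.05, where 11.8% of all 9464 genes were called in either direction 2.51% were higher and 9.29% lower. Their median log2 change was -0.17, beside -0.05 over all genes. Of the 8, 4 were lower in both STING libraries than in both vector libraries (HMOX1, NQO1, FTH1 and FTL) and SRXN1 was higher in both, where 32.8% of all genes were lower and 24.2% higher in this way. In wild-type cells 4 of 9 were lower without overlap (HMOX1, NQO1, TXNRD1 and SRXN1), where 52.3% of all genes were lower and 3.31% higher in this way, and the median of -0.21 lay near that of all genes. In PERK knockout cells SRXN1 was lower and GCLC higher without overlap, where 21.9% of genes were lower and 5.66% higher. Between genotypes with vector, HMOX1 was higher and NFE2L2 and GCLC lower in PERK knockout cells, where 12.5% of genes were higher and 25.8% lower.

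Few genes of any kind passed in the knockout experiment. Of 12254 genes, STING changed 0.00816% in PERK knockout cells and 0.00816% in wild-type cells, TMEM173 itself in each, and 0.049% differed between PERK knockout and wild-type cells with vector. The response differed between genotypes in 0 genes by limma, with 474 at an unadjusted p under 0.05 and a lowest adjusted p of 0.966. With the replicate number as a block, the genotype comparison called 105 genes against 6 without it, and the comparison of STING with vector in PERK knockout cells called 2 against 1; no member was among them. The members' adjusted p-values therefore do not show that they were alike between groups, and the intervals in the plot of changes give the sizes that remain possible.

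**Figure D3:**
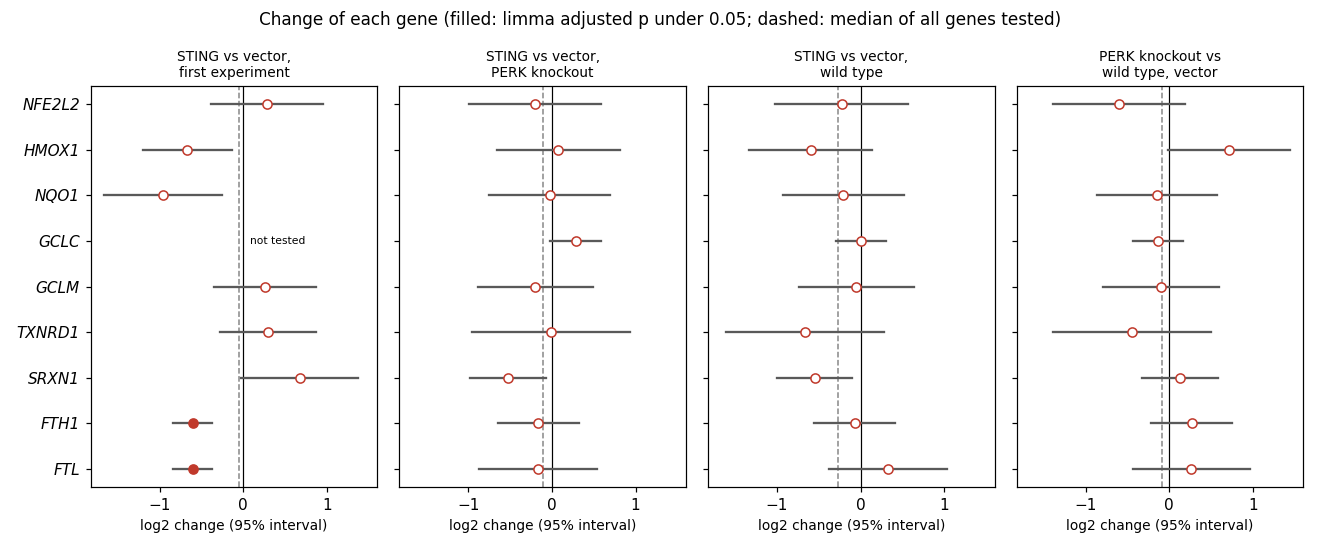
Log2 change of each gene (points) with its 95% interval from limma on log2(FPKM + 1), in 4 comparisons; filled points have an adjusted p under 0.05 and dashed lines mark the median of all genes tested. FTH1 and FTL in the first experiment, both at -0.60, are the filled points, and GCLC was not tested there.

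The other genes of the pathway, 83 in 6 lists by role, were examined in the same fits. In the first experiment 66 were tested, of which 4 were higher and 12 lower with STING, with a median log2 change of -0.06, where 11.8% of all genes were called. Of 15 glutathione and cystine genes tested, 1 was higher and 6 were lower, with a median of -0.64. MGST2, a microsomal glutathione transferase, had 43.7 and 39.1 FPKM with STING and 109 and 110 with vector (log2 change -1.39, limma adjusted p = 0.00160). Its relative MGST3 had 166 and 156 with STING and 377 and 350 with vector (-1.17, limma adjusted p = 0.00143). GPX1, a glutathione peroxidase, had 1517 and 1606 with STING and 2582 and 2732 with vector (-0.77, limma adjusted p = 0.00372). The transferase GSTM4 had 1.02 and 1.12 with STING and 2.76 and 3.87 with vector (-1.05, limma adjusted p = 0.0370). The higher gene, named after its value was seen, was SLC3A2, a heavy chain that the cystine transporter shares with other amino acid transporters, with 194 and 207 FPKM with STING and 102 and 135 with vector (0.77, limma adjusted p = 0.0173).

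Of 10 NRF2 regulators tested in the first experiment, 1 passed: MAFF, a small MAF protein that can partner NRF2, was higher with STING. It had 6.29 and 5.28 FPKM with STING and 1.70 and 0.625 with vector, a log2 change of 1.69 (SE 0.30, limma adjusted p = 0.0118). In PERK knockout cells it had 3.88 and 3.73 with STING and 2.87 and 2.49 with vector (0.39, limma adjusted p = 0.705), and in wild-type cells 6.72 and 6.98 with STING and 1.97 and 2.18 with vector (1.36, unadjusted p = 0.000117, limma adjusted p = 0.384). All 3 settings had both STING libraries above both vector libraries. Of all genes, 24.2% were higher in this way in the first experiment, 5.66% in PERK knockout cells and 3.31% in wild-type cells. The response of MAFF in PERK knockout cells minus that in wild-type cells was -0.97 (SE 0.27, unadjusted p = 0.00747, limma adjusted p = 0.966). TMEM173 averaged 8925 FPKM with STING in PERK knockout cells and 41236 in wild-type cells, so genotype and STING level cannot be told apart here. KEAP1, named after its values were seen because it holds NRF2, had 41.3 and 51.0 FPKM with STING and 43.2 and 52.3 with vector in the first experiment. It had 19.2 and 24.6 in PERK knockout cells with STING, 21.9 and 31.3 with vector, 24.4 and 27.4 in wild-type cells with STING, and 40.0 and 43.4 with vector. The vector libraries of wild-type cells were above all others of that experiment, at a log2 difference of -0.65 between PERK knockout and wild-type cells with vector (SE 0.23, limma adjusted p = 0.326). Of all genes, 25.8% were lower without overlap in PERK knockout than in wild-type cells with vector. With STING in wild-type cells, 52.3% were lower without overlap.

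Of 12 thioredoxin and peroxiredoxin genes, 0 were higher and 3 lower, with a median of -0.27. PRDX4, the peroxiredoxin of the endoplasmic reticulum, had 972 and 936 FPKM with STING and 1622 and 1677 with vector (-0.79, limma adjusted p = 0.00323). TXN2, the mitochondrial thioredoxin, had a log2 change of -0.74 and PRDX2, a cytosolic peroxiredoxin, one of -0.49. Of 6 enzymes that supply NADPH, TKT, a transketolase, was higher, at 224 and 226 FPKM with STING and 110 and 143 with vector (0.84, limma adjusted p = 0.0101). TALDO1, a transaldolase, was lower (-0.47, limma adjusted p = 0.0472). Of 8 detoxification genes, 1 was lower: NQO2, a relative of NQO1, had 27.2 and 32.1 FPKM with STING and 71.6 and 94.8 with vector (-1.45, limma adjusted p = 0.00354). Of 15 genes of haem and iron handling, BLVRB, which reduces a bile pigment made from haem, was lower (-0.59, limma adjusted p = 0.0223), and PCBP1, which delivers iron to ferritin, was higher, at 127 and 143 FPKM with STING and 83.4 and 97.5 with vector (0.57, limma adjusted p = 0.0320). The medians were 0.07 for the NADPH enzymes, -0.05 for detoxification and 0.23 for haem and iron handling. As for ferritin, none of these 16 calls held when either STING library was left out or without the intensity trend and robust estimation, and 10 of the 66 genes passed under quantile normalization, 5 in each direction. Without vector library 1, 11 of the 16 kept their call, and without vector library 2, 13 did.

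**Figure D4:**
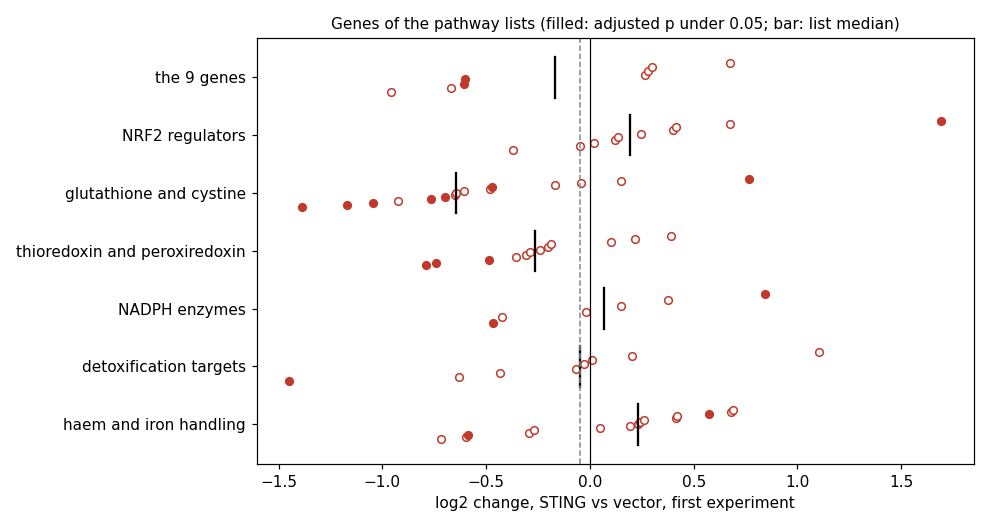
Log2 change with STING in the first experiment for each tested gene (points) of the 9 genes and of the 6 pathway lists; filled points have a limma adjusted p under 0.05, bars are list medians and the dashed line is the median of all genes. The glutathione and cystine genes have their median at -0.64, and MAFF lies alone at 1.69.

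In the knockout experiment 79 of the 83 genes were tested and 0 passed in each of the 4 comparisons by limma, at 0.00816% of all genes for either STING response. Among list genes with a mean of at least 5, some of the largest changes in wild-type cells were those of NQO2, with 32.9 and 31.8 FPKM with STING and 65.0 and 71.8 with vector (log2 change -1.06), and of HMOX2, the constitutive haem oxygenase, with 25.3 and 27.3 with STING and 49.9 and 48.6 with vector (-0.88). Each had a limma adjusted p of 0.384. With the same limit, the largest in PERK knockout cells were those of MGST1 (-0.66), TXN, the cytosolic thioredoxin (-0.53), and NQO2 (-0.49). Between genotypes with vector, MGST1 had 127 and 196 FPKM in PERK knockout cells and 59.5 and 58.9 in wild-type cells, a log2 difference of 1.40 (limma adjusted p = 0.213). SESN2, a stress-induced sestrin, had 19.0 and 25.1 in PERK knockout cells and 39.0 and 47.9 in wild-type cells (-0.95, limma adjusted p = 0.194), and PIR, an NRF2-controlled iron protein, had 5.42 and 10.4 in PERK knockout cells and 3.81 and 4.32 in wild-type cells (0.76, limma adjusted p = 0.382). Some of the largest differences of the STING response, by the same limit, were those of IDH1 (1.05) and GSS (0.86), both at a limma adjusted p of 0.966.

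Likeness of pattern was measured as the root mean square difference of log2(FPKM + 1), centred within each table, over 12 libraries and 4832 genes with a mean of at least 5 in both tables. Smaller values mean a closer pattern. For NFE2L2 the closest genes were UTP11L at 0.125, PHF6 at 0.128 and C18orf8 at 0.134, where the median gene stood at 0.409. For HMOX1 they were FXYD6 at 0.132, DPH5 at 0.177 and MFSD3 at 0.181, against a median of 0.589. For FTH1 they were C11orf31 at 0.0847, PHYHD1 at 0.101 and GPX4, a peroxidase of lipid peroxides, at 0.104, against a median of 0.387. For FTL they were HIGD2A at 0.124, PSMG3 at 0.143 and NDUFC1 at 0.153, against a median of 0.461. The ferritin chains stood 0.184 from each other, while NFE2L2 and HMOX1 stood 0.769 apart, farther than HMOX1 stood from the median gene. A gene with no variation would stand 0.235 from FTH1, 0.294 from FTL, 0.383 from NFE2L2 and 0.546 from HMOX1. Genes that vary little, as the ferritin chains do, thus lie closer to others by this measure. These are descriptions over libraries that share their experiments and groups.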

How the data were processed

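RNA from polysome fractions of 12 HEK293 libraries was analysed. Smart-seq2 cDNA from polyadenylated mRNA was sequenced as paired reads, per the labels' protocols, which add ERCC spike-ins in the knockout experiment; these were not used here. FPKM values were deposited by the authors as 1 table per experiment; TopHat2 2.1.1, Cufflinks 2.2.1 and build hg19 are named in the submitters' processing notes. The gene annotation was not given in the sources used here. In its header, the second table names no unit and was read as FPKM with values under 1 raised to 1, which understates falls to that floor. Groups and replicate numbers came from the sample titles. Depth is unknown, so no counting intervals are given. Within groups, 0 replicate values above 1 were identical.

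Values were tested as log2(FPKM + 1) with limma 3.58.1 (R 4.3.3), keeping genes that averaged at least 1 and varied, with an intensity trend and robust estimation, two-sided, adjusted by Benjamini and Hochberg over all genes at 0.05. That left 9464 genes of the first experiment and 12254 of the knockout experiment, fitted separately, the 8 knockout-experiment libraries with 1 mean per group and a common spread. The pseudocount makes changes of low genes appear smaller. The 5 contrasts were STING against vector in 3 settings, PERK knockout against wild type with vector, and the difference of the STING response between genotypes. The fit was tested on simulated data. Ratios had exact permutation tests.

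The named genes are the 9 members, TMEM173 and EIF2AK3, and, per pathway list, up to 4 genes past the threshold with the largest changes; where no list gene passed, the 3 with the largest changes and a mean of at least 5; and the 3 genes most like each of 4 members in pattern. A gene that this rule names is not reported here. The members and lists were chosen with earlier results of these data known. Alternatives were median-of-ratios scaling, quantile normalization, pseudocounts of 0.1 and 5, no filter, a mean of at least 5, no trend and robust estimation, a replicate block, a fit on the compared groups alone, and each library left out. In the knockout experiment, deviations of same-numbered libraries correlated above 0.1 for all 6 pairs of groups over 6340 genes (0.105 to 0.605). Same-numbered libraries were therefore read as pairs, from the data and the titles' numbers. The main fits did not use this pairing, so their SE, intervals and p-values ignore it. The pairing entered only the replicate block and the comparisons of FTH1 and FTL between libraries of the same number. Sequences are from RefSeq, with Python 3.11.15.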

Additional observations from a re-analysis of the deposited data

Results flagged for a closer look

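SRXN1 was singled out because its libraries moved in opposite directions in the experiments. With STING its log2 change was 0.67 in the first experiment, where both STING libraries were above both vector libraries, and -0.53 in PERK knockout cells and -0.55 in wild-type cells of the knockout experiment, where both STING libraries were below both vector libraries. Of all genes, 24.2% were higher without overlap in the first experiment, and 21.9% in PERK knockout cells and 52.3% in wild-type cells were lower. Under median-of-ratios scaling the SRXN1 changes were 0.72, -0.35 and -0.19 in the same order. The difference between the experiments was not tested, since the tables were normalized separately, and none of the 3 changes passed the limma threshold.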

How the results depend on the processing

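In the first experiment 1117 genes were called, 238 higher and 879 lower. The count was 580 without a filter and 17 without the intensity trend and robust estimation, and between 38 and 818 with 1 library left out: 42 without STING library 1, 38 without STING library 2 and 686 without vector library 2. Quantile normalization called 346 higher and 431 lower. In this experiment the numbers only name libraries, since the deviations of same-numbered libraries correlated at 0.0836 over 5296 genes; the replicate block called 1587 genes, FTH1 and FTL among them. STING against vector called 1 gene in wild-type cells, and 1 to 2 with 1 library left out, and 1 gene in PERK knockout cells, 2 with the replicate block and 1 to 3 with 1 library left out. PERK knockout against wild type called 6 genes, 53 under median-of-ratios scaling, 24 under quantile normalization, 17 with a pseudocount of 0.1, 32 with a mean of at least 5, 105 with the replicate block, 0 without the trend and robust estimation and in the fit on the groups compared alone, and 0 to 3 with 1 library left out. The replicate block changed no other call. The causes were not tested.

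Of 361 member values under alternatives other than left-out libraries, 333 kept direction and call, 4 lost the call (FTH1 and FTL in the first experiment) and 24 changed sign, none of these past the threshold in either fit. In wild-type cells the signs that changed gave NFE2L2 0.12, NQO1 0.037, GCLM 0.27 and FTH1 0.32 under median-of-ratios scaling, NFE2L2 0.13, NQO1 0.018, GCLM 0.27 and FTH1 0.15 under quantile normalization, and GCLC -0.0013 with a pseudocount of 0.1. In PERK knockout cells they gave NQO1 0.0895, TXNRD1 0.16, FTH1 0.025 and FTL 0.023 under median-of-ratios scaling, NQO1 0.047, TXNRD1 0.13, FTH1 0.098 and FTL 0.062 under quantile normalization, and TXNRD1 0.0082 with a pseudocount of 0.1. GCLM between genotypes was 0.052 and 0.030 under these scalings. For the difference of responses, NFE2L2 was -0.17 and SRXN1 -0.16 under median-of-ratios scaling, and -0.21 and -0.17 under quantile normalization. Median-of-ratios scaling moved the median of all genes in wild-type cells to 0.05, against -0.27 unscaled.

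With 1 library left out, 281 of 320 member values kept direction and call, 4 lost the call and 35 changed sign. Values that changed sign, as ranges over left-out libraries, were NFE2L2 in the first experiment, -0.084 to 0.65. In wild-type cells they were GCLM, -0.16 to 0.063, GCLC, -0.13 to 0.14, FTH1, -0.16 to 0.021, and NFE2L2, -0.50 to 0.039. In PERK knockout cells they were NFE2L2, -0.63 to 0.22, TXNRD1, -0.61 to 0.59, HMOX1, -0.39 to 0.54, NQO1, -0.43 to 0.37, FTL, -0.49 to 0.16, FTH1, -0.39 to 0.063, and GCLM, -0.64 to 0.24. Between genotypes with vector they were TXNRD1, -1.05 to 0.15, FTL, -0.063 to 0.59, NQO1, -0.47 to 0.18, and GCLM, -0.54 to 0.34. For the difference of responses they were NQO1, -0.22 to 0.58, NFE2L2, -0.40 to 0.45, SRXN1, -0.090 to 0.14, FTH1, -0.32 to 0.13, and GCLM, -0.59 to 0.29.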
